A study of Mus musculus with 6 samples.

Results

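The 10 coenzyme Q synthesis genes *Pdss1*, *Pdss2*, *Coq2*, *Coq3*, *Coq4*, *Coq5*, *Coq6*, *Coq7*, *Coq9* and *Adck3* were chosen by symbol from the 19445 gene loci of an RNA-Seq table of inguinal white adipose tissue (iWAT). Each symbol was found on its own row, and all 10 were over 1 FPKM in every mouse. FPKM is a fragment density, scaled to transcript length and to the mapped reads of a library. All 10 were therefore among the 11692 loci that were tested, those whose mean exceeded 1 FPKM in either genotype. The tissue came from 3 *Hlx* transgenic mice and 3 wild-type littermates, labelled as males of 12 weeks, with 1 library per mouse. The transgene was the *Hlx* cDNA, coding for a homeobox transcription factor, behind the *aP2* (*Fabp4*) promoter, which is active in adipocytes. It was made in C57BL/6 × SJL embryos and backcrossed to C57BL/6. No treatment is named in the labels. The comparison asks how the synthesis genes differ between transgenic and wild-type iWAT.

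Coenzyme Q, or ubiquinone, is a lipid of the inner mitochondrial membrane that carries electrons from complex I, complex II and several dehydrogenases to complex III. It is made inside mitochondria. A long isoprenoid tail from the mevalonate pathway is attached to an aromatic ring, and a complex of COQ proteins then hydroxylates and methylates the ring. Brown adipose tissue is rich in mitochondria and burns fatty acids to make heat, so its respiratory chain feeds many electrons into this lipid.

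*Hlx* RNA checked the labels, with 96.2 ± 15.3 FPKM (SD, n = 3 mice) in transgenic and 7.45 ± 0.637 FPKM (SD, n = 3 mice) in control iWAT. Of 7 brown adipocyte markers 6 were higher in the transgenic mice by limma, with *Dio2* not called, and their summed level was 6165 to 7951 FPKM against 611 to 1053 FPKM. General adipocyte markers were abundant in both genotypes, with 0 of 7 higher and *Adipoq* and *Lpl* lower, and none of the 7 was near 0. Skeletal muscle markers, 9 in the table, differed between libraries, with sums of 96.8, 717 and 142 FPKM in transgenic replicates 1, 2 and 3 and 7.42, 149 and 41.3 FPKM in the wild-type mice. None of the 9 was called (limma, 0 at an adjusted p under 0.05 and 2 at an unadjusted p under 0.05), and *Myh4* was listed at 0 in wild-type replicate 1. All 9 nevertheless had positive log2 fold changes, from 0.80 to 2.62 with a median of 2.18, so muscle RNA was unequal between the genotypes in these libraries. Macrophage markers were lower for 3 of 5, with sums of 91.0 to 120 FPKM against 154 to 188 FPKM. Of 6 lymphocyte markers 1 was lower, of 5 endothelial markers 1 was higher, and of 5 epithelial markers 0 were called. Over all tested loci 11.6% were called higher and 7.03% lower, so single calls in such short lists are not read as a result. The 6 lymphocyte log2 fold changes ran from -0.76 to -0.09, and 3 were lower at an unadjusted limma p under 0.05. The male label was not borne out, since *Xist*, a female transcript, ranged from 20.2 to 33.6 FPKM over the 6 libraries and the 28 Y chromosome loci were listed at 0. In a bulk sample, fewer cells of a type and less RNA per cell cannot be told apart.

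Most of the synthesis genes were higher in transgenic iWAT, by unequal amounts. Of the 10 genes, 9 were higher and 0 lower at a Benjamini-Hochberg adjusted p under 0.05 (limma on log2(FPKM + 1), n = 3 mice per genotype), and 0 were lower at an unadjusted p under 0.05. Over all tested loci 11.6% were called higher and 7.03% lower. For the same 9 genes every transgenic mouse was above every wild-type mouse, which held for 22.8% of all tested loci. *Coq2* overlapped between the genotypes. The median log2 fold change of the 10 genes was 0.70, also 0.70 without *Adck3*, against -0.01 over all tested loci. *Adck3* had the highest value of the 10, 3.54, and the other 9 lay between 0.25 and 1.36. With 3 mice against 3, the smallest p of a two-sided exact permutation test is 0.1. It was reached by the 9 genes without overlap, while *Coq2* had p = 0.2 (exact permutation test).

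**Figure D1:**
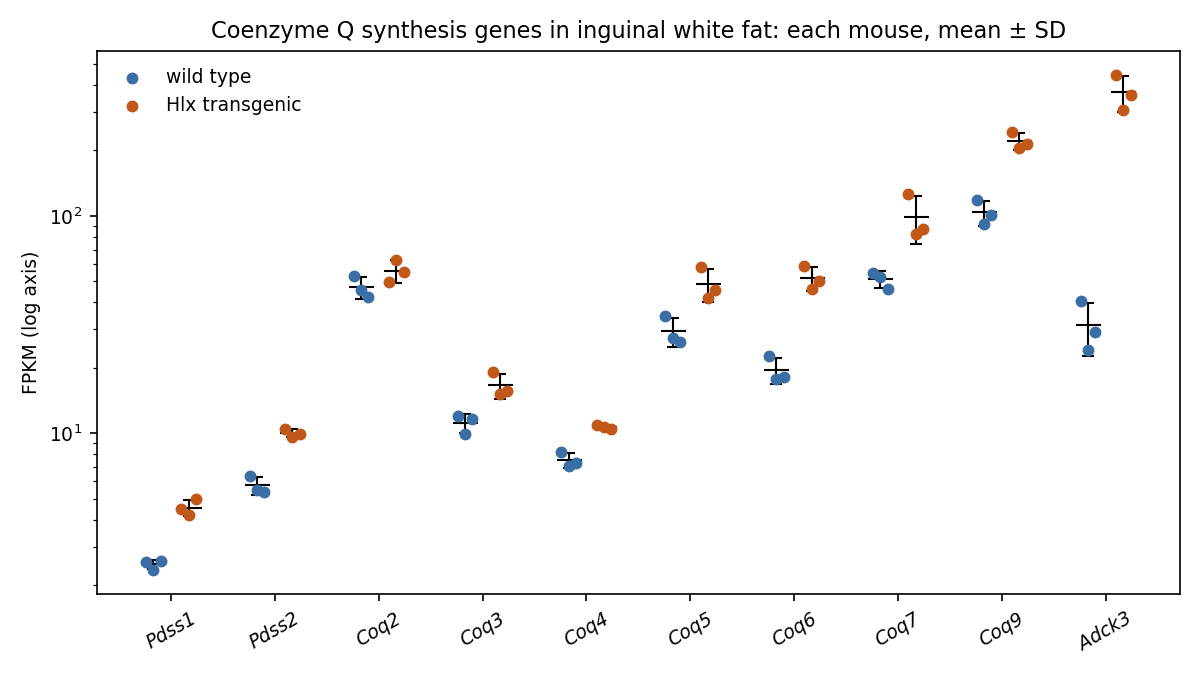
FPKM of the 10 coenzyme Q synthesis genes on a log axis, with a point for each mouse (blue, wild type; orange, *Hlx* transgenic) and a bar for the mean with the SD of 3 mice. The orange points lie above the blue points for each gene except *Coq2*, and the gap is widest for *Adck3*, with 306 to 443 FPKM against 24.1 to 40.7 FPKM.

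*Adck3*, now named *Coq8a*, codes for an atypical kinase of the ADCK family that is needed for the complex of COQ proteins in the mitochondrial matrix. Its level was 443, 306 and 360 FPKM in transgenic replicates 1, 2 and 3. The wild-type mice had 40.7, 24.1 and 29.1 FPKM. The lowest transgenic value was therefore several fold above the highest wild-type value. The means were 370 ± 68.9 FPKM and 31.3 ± 8.55 FPKM (SD, n = 3 each), a ratio of 11.8. On the log2(FPKM + 1) scale the fold change was 3.54 (SE, the standard error, 0.21, limma adjusted p = 0.000317), which ranked 11 among the 11692 loci. It stayed between 3.36 and 3.74 over the alternative settings. Without transgenic replicate 2, the library with the highest muscle marker sum, it was 3.66 (limma adjusted p = 0.00118).

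The promoters of *Adck3*, of *Coq6*, which had the next largest fold change, and of *Coq2*, the gene that was not called, show the sequence around the starts of the genes at both ends of the range. Each runs from 250 bases before to 50 bases after a RefSeq start on GRCm38.p6, 5′ to 3′ on the strand of the gene. Capitals mark matches on either strand to 4 motifs, the ERR element TCAAGGTCA, the nuclear receptor site AGGTCA that it contains, the NRF-1 core GCGCATGC and the ETS site CCGGAAG. *Adck3* has a pair of RefSeq starts, at chr1:180195971-180196270 and chr1:180193436-180193735, both on the minus strand. *Coq6* is at chr12:84361718-84362017 on the plus strand and *Coq2* at chr5:100674207-100674506 on the minus strand.
Adck3 upstream start: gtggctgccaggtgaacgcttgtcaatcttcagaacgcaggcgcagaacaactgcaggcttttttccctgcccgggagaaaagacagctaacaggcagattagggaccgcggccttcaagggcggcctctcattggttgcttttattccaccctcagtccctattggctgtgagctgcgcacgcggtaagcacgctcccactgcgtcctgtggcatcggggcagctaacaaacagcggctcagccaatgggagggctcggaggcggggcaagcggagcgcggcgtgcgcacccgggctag
Adck3 downstream start: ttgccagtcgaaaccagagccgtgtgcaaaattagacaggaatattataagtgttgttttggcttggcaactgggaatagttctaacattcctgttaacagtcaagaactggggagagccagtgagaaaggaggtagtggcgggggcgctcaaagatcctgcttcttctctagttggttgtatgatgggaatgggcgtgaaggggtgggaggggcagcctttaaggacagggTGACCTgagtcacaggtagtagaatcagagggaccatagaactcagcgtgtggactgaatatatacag
Coq6: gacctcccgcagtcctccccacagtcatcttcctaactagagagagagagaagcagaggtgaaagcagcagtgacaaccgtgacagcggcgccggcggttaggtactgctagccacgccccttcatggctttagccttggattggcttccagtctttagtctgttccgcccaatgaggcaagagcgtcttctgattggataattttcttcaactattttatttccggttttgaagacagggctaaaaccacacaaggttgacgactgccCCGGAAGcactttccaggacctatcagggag
Coq2: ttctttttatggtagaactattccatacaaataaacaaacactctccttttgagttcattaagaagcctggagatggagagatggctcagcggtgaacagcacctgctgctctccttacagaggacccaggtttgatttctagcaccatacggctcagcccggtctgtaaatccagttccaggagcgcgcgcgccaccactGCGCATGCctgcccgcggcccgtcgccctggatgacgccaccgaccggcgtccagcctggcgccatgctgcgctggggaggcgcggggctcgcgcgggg

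RefSeq promoters were matched for 9 of the 10 genes. The ERR element was in 0 of these 9 genes and in 0.423% of 32851 RefSeq promoters. The AGGTCA site was in 4 of 9 genes, *Pdss1*, *Coq4*, *Coq7* and the downstream start of *Adck3*, and in 16.3% of all promoters. The ETS site was in *Pdss1*, *Pdss2* and *Coq6*, 3 of 9 genes, and in 8.86% of promoters, while the NRF-1 core was in *Coq2* alone, 1 of 9 genes, and in 2.71% of promoters. *Adck3* and *Coq3* have more than 1 start, so their genes had more sequence in which to match. A match is a description of the letters and not a binding site. The upstream *Adck3* start lies 3537 bases inside the end of the deposited locus, so the deposited annotation may begin further upstream, and FPKM per gene do not part the starts.

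The deposited *Adck3* row has the interval chr1:179960342-180199557 (mm10), which it shares with *Cdc42bpa*, a kinase gene on the opposite strand. In the GENCODE annotation of the same build *Adck3* itself spans chr1:180165238-180199602, and 6.91% of its exonic bases overlap exons of a neighbour. The library kit does not keep the strand. *Cdc42bpa* had 11.9, 8.25 and 9.14 FPKM in transgenic and 5.56, 6.79 and 5.999 FPKM in wild-type mice, far under the transgenic *Adck3* values. It was itself called higher without overlap, with a log2 fold change of 0.58 (limma adjusted p = 0.0290). Sharing of reads between the 2 genes was not tested. The *Adck3* to *Cdc42bpa* ratio within a mouse was 37.3, 37.1 and 39.4 in transgenic and 7.32, 3.54 and 4.85 in wild-type iWAT, a ratio computed after these values were seen.

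*Adck4*, now *Coq8b*, is the paralogue of *Adck3* that also acts in coenzyme Q synthesis. It had 25.6, 22.4 and 20.2 FPKM in transgenic and 19.9, 15.8 and 16.7 FPKM in wild-type iWAT. The genotypes did not overlap, but the log2 fold change of 0.36 (95% confidence interval 0.08 to 0.64) was not called (limma adjusted p = 0.0783). The *Adck3* to *Adck4* ratio within a mouse was 17.3, 13.7 and 17.8 in transgenic and 2.04, 1.52 and 1.74 in wild-type iWAT. All 3 transgenic ratios were above all wild-type ratios, with a log2 difference of 3.20 (exact permutation p = 0.1, the smallest this design allows). The kinase pair therefore stood at unequal FPKM in both genotypes, with a wider gap in the transgenic mice. The *Adck3* values alone were so far apart that their ratio to *Adck4* had to separate. The permutation p of the ratio thus adds nothing to the *Adck3* result. The other relatives, whose roles are less settled, had log2 fold changes of 0.59 for *Adck1* (adjusted p = 0.00735, limma), 0.08 for *Adck2* (0.557) and -0.26 for *Adck5* (0.0730). *Adck5* was lower in each transgenic mouse than in each wild-type mouse, though it was not called.

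**Figure D2:**
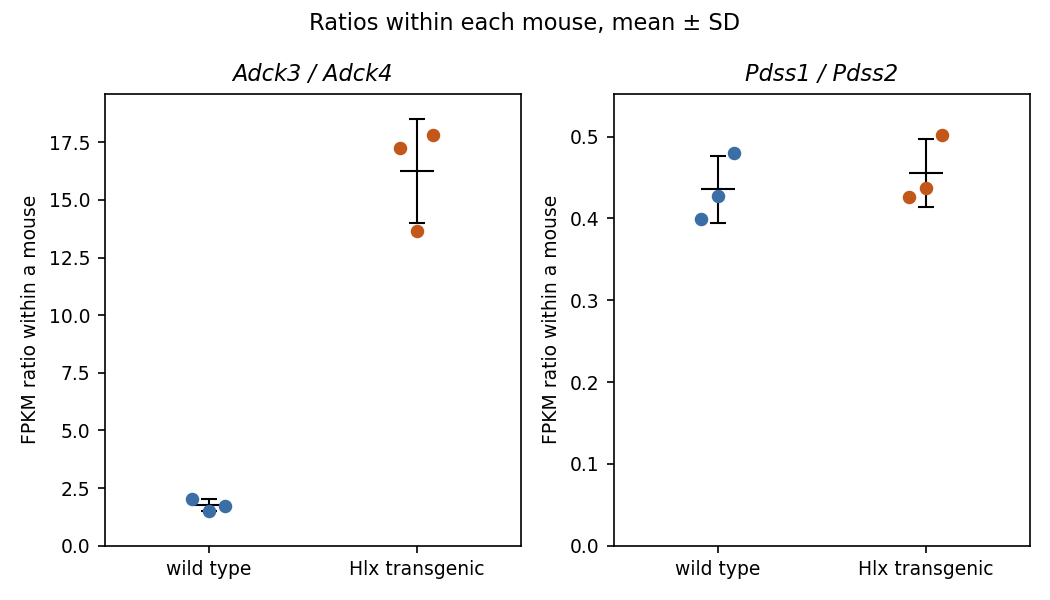
Ratio of FPKM within each mouse for *Adck3* over *Adck4* and for *Pdss1* over *Pdss2*, with linear axes from 0, a point for each mouse and a bar for the mean with the SD of 3 mice. The kinase ratio is 13.7 to 17.8 in transgenic and 1.52 to 2.04 in wild-type mice, while the ratios of the tail synthase subunits overlap.

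*Pdss1* and *Pdss2* code for the subunits of the prenyl diphosphate synthase that builds the tail. *Pdss1* had the lowest level of the 10 genes in both genotypes, with 4.46, 4.20 and 4.97 FPKM in transgenic and 2.54, 2.35 and 2.58 FPKM in wild-type iWAT. *Pdss2* had 10.5, 9.62 and 9.88 FPKM against 6.37, 5.50 and 5.37 FPKM. Neither gene overlapped between the genotypes. *Pdss1* rose by 0.67 on the log2 scale (SE 0.09, limma adjusted p = 0.00459) and *Pdss2* by 0.71 (SE 0.09, adjusted p = 0.00292). The *Pdss1* to *Pdss2* ratio was 0.455 ± 0.0414 in transgenic and 0.436 ± 0.0411 in wild-type mice (SD, n = 3 each), with a log2 difference of 0.06 (exact permutation p = 0.6) that changed sign, to -0.04, when 1 FPKM was added before the ratio and, to -0.01, without transgenic replicate 3. The 2 subunits thus had ratios that overlapped between the genotypes. The *Pdss1* row covers *Abi1* as well, and 4.87% of its exonic bases overlap a neighbour.

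*Coq2* codes for the prenyltransferase that joins tail and ring. It had 49.4, 62.5 and 55.4 FPKM in transgenic and 53.0, 45.4 and 42.2 FPKM in wild-type iWAT. Transgenic replicate 1, the highest mouse for 8 of the 10 genes, was here the lowest transgenic mouse and lay under wild-type replicate 1. The log2 fold change was 0.25 (95% confidence interval -0.04 to 0.53, limma adjusted p = 0.188), so a small rise could not be told from no change at this spread. *Coq2* was uncalled in every alternative, with adjusted p between 0.117 and 0.424. Set against *Coq2* within each mouse, 7 of the other 9 genes had ratios that were higher in all transgenic than in all wild-type mice, and those of *Coq3* and *Coq4* overlapped. *Coq9* to *Coq2*, for example, was 4.92, 3.27 and 3.86 in transgenic and 2.24, 2.03 and 2.39 in wild-type iWAT. These ratios were taken after the values were seen and were not tested. They set genes that were called higher over the only one that was not, so separation is partly built in. The share of all loci whose ratio to *Coq2* separates was not computed, so the count has no background to be read against.

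The ring is modified by *Coq3*, *Coq5*, *Coq6* and *Coq7*. *Coq6*, a flavin monooxygenase that hydroxylates the ring, had 58.7, 45.9 and 50.1 FPKM in transgenic and 22.7, 17.7 and 18.2 FPKM in wild-type iWAT. The transgenic mean of 51.6 ± 6.54 FPKM (SD, n = 3) was 2.64 times the wild-type mean of 19.5 ± 2.72 FPKM (SD, n = 3), with no overlap. With a log2 rise of 1.36 (SE 0.13, limma adjusted p = 0.00115) it ranked 181 among the tested loci. The row shares its interval with *Rnf113a2*, *Entpd5* and *Aldh6a1*, whose log2 fold changes were -0.24, 1.15 and 0.32. Among these neighbours only *Entpd5* was called, as higher (limma adjusted p = 0.00134). In the GENCODE annotation the exons of *Coq6* overlap those of *Fam161b* alone, at 4.07% of its exonic bases. Sharing of reads with the neighbours was not tested.

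*Coq7*, the hydroxylase of a late step, had 127, 82.6 and 86.6 FPKM in transgenic and 54.6, 52.5 and 46.0 FPKM in wild-type iWAT. Transgenic replicate 1 stood above the other two transgenic mice, and the groups did not overlap. The log2 fold change of 0.91 (SE 0.17) had a limma adjusted p of 0.0127, and of 0.0502 without wild-type replicate 3. *Coq9*, which binds lipid and works as the partner of *Coq7*, had 243, 204 and 214 FPKM against 119, 92.2 and 101 FPKM. The means of *Coq9* were 220 ± 20.2 FPKM and 104 ± 13.6 FPKM (SD, n = 3 each), which is 1.08 higher on the log2 scale (SE 0.12, adjusted p = 0.00225, limma). *Coq9* had the highest level of the 10 in wild-type iWAT.

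The methyltransferase genes were *Coq3*, which acts on oxygen atoms of the ring, and *Coq5*, which acts on a ring carbon. *Coq3* had 19.1, 15.1 and 15.6 FPKM in transgenic and 12.0, 9.88 and 11.6 FPKM in wild-type iWAT. *Coq5* had 57.9, 41.8 and 45.8 FPKM against 34.5, 27.3 and 26.4 FPKM. In both genes transgenic replicate 1 was high and the groups did not overlap. The log2 fold changes were 0.53 for *Coq3* (SE 0.12, limma adjusted p = 0.0218) and 0.70 for *Coq5* (SE 0.15, adjusted p = 0.0215). Both limma calls were lost without transgenic replicate 3 (adjusted p = 0.0543 for *Coq3* and 0.0586 for *Coq5*), without wild-type replicate 2 (0.0671 and 0.0681) and without wild-type replicate 3 (0.0582 and 0.0758). The count of 9 genes called higher was then 7, 7 and, with *Coq7* lost too, 6. The *Coq5* row shares its interval with *Dynll1*, which had a log2 fold change of -0.06 and was not called. No exonic bases of *Coq5* overlap exons of a neighbour.

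*Coq4*, needed for assembly of the synthesis complex, had the narrowest spread in transgenic iWAT, with 10.9, 10.6 and 10.4 FPKM. The wild-type mice had 8.17, 7.09 and 7.30 FPKM. The rise of 0.46 on the log2 scale (SE 0.08, limma adjusted p = 0.0104) was the smallest among the 9 genes called. Of its exonic bases 27.1% overlap exons of *Trub2* on the other strand, and reads that lie inside this overlap cannot be told apart by strand with this kit. *Trub2* had 13.0, 9.17 and 10.6 FPKM in transgenic and 8.68, 10.8 and 8.26 FPKM in wild-type iWAT, which overlap.

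**Figure D3:**
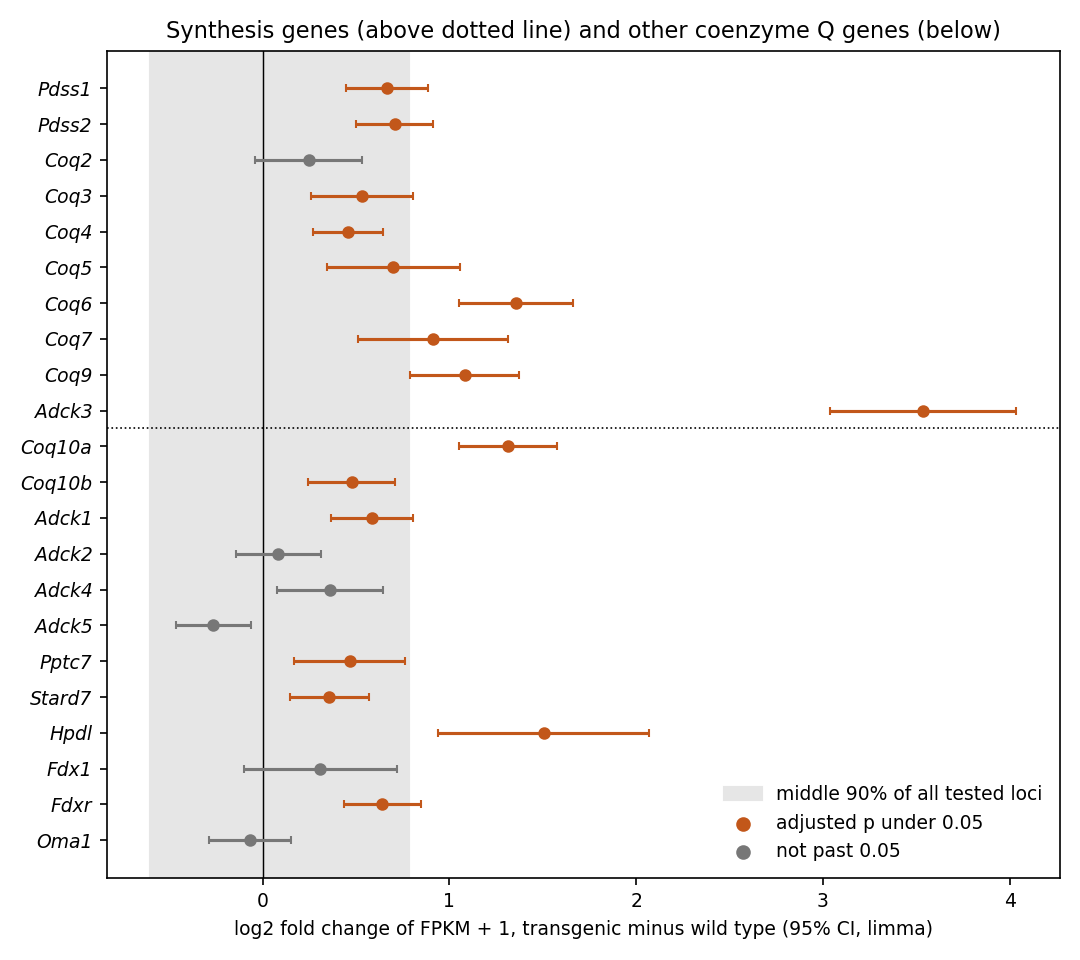
Log2 fold change of FPKM + 1, transgenic minus wild type, with 95% confidence intervals from limma, for the 10 synthesis genes (above the dotted line) and 12 other coenzyme Q genes. Orange points were called at an adjusted p under 0.05, grey points were not, and the grey band holds the middle 90% of all tested loci, from -0.60 to 0.78. Of the synthesis genes, *Adck3*, *Coq6*, *Coq7* and *Coq9* lie past the band.

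The make-up of the set differed between the genotypes. FPKM are scaled per length, so levels can be set side by side. In transgenic iWAT the order was *Adck3*, *Coq9*, *Coq7*, *Coq2*, *Coq6*, *Coq5*, *Coq3*, *Coq4*, *Pdss2* and *Pdss1*, and the mice overlapped between *Coq2* and *Coq6*, between *Coq6* and *Coq5* and between *Coq4* and *Pdss2*. In wild-type iWAT it was *Coq9*, *Coq7*, *Coq2*, *Adck3*, *Coq5*, *Coq6*, *Coq3*, *Coq4*, *Pdss2* and *Pdss1*, with overlap between *Coq7* and *Coq2* and between *Adck3* and *Coq5*. *Adck3* thus moved from the fourth place to the first, and the last 4 places kept their order. The 10 genes summed to 1024, 783 and 853 FPKM in transgenic and 353, 284 and 289 FPKM in wild-type mice. *Adck3* made up 43.3%, 39.1% and 42.2% of that sum in transgenic and 11.5%, 8.47% and 10.1% in wild-type iWAT. Without *Adck3* the sums were 581, 477 and 493 FPKM against 313, 260 and 260 FPKM, again without overlap. *Coq2* made up 4.83% to 7.99% in transgenic and 14.6% to 15.98% in wild-type iWAT.

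**Figure D4:**
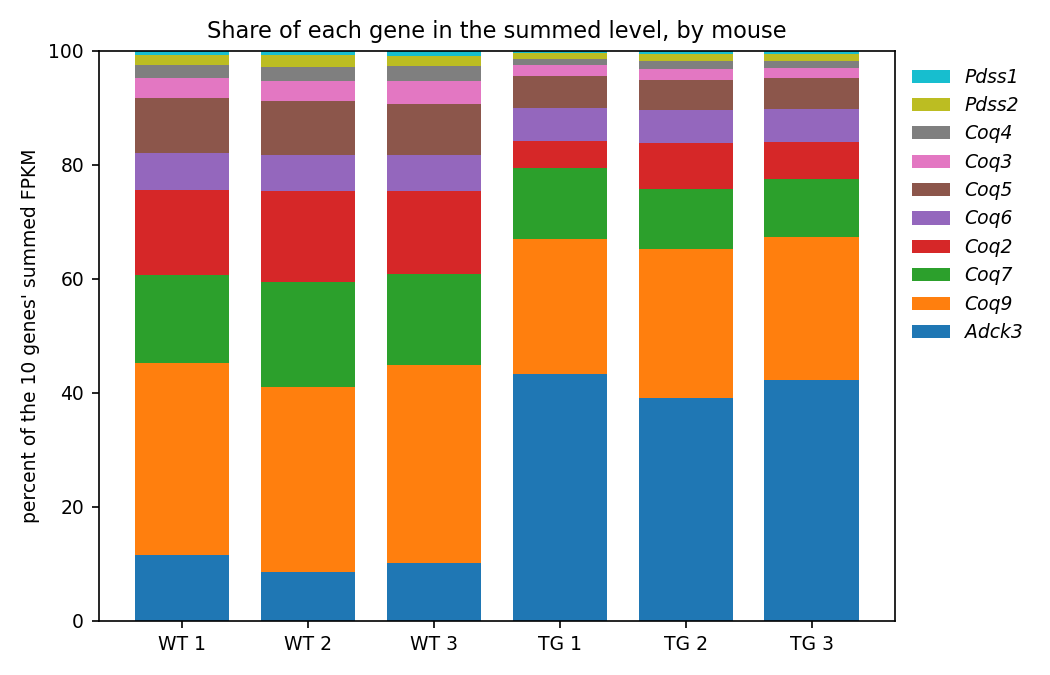
Share of each gene in the summed FPKM of the 10 synthesis genes, as percent, for each wild-type (WT) and transgenic (TG) mouse. *Adck3*, the lowest block, takes 39.1% to 43.3% in transgenic and 8.47% to 11.5% in wild-type mice.

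Transgenic replicate 1 had the highest transgenic value for 8 of the 10 synthesis genes, against 43.2% of all tested loci. Wild-type replicate 1 was the highest wild-type mouse for 9 of the 10, against 38.8% of loci. Summed over all loci, FPKM was also largest in replicate 1 of each genotype. The sums were 542096, 514537 and 504083 in transgenic and 518450, 473472 and 466059 in wild-type replicates 1, 2 and 3. Relative depth, read from the steps between low values and set to 1 in wild-type replicate 3, was 0.714 in transgenic and 0.943 in wild-type replicate 1. The part of these sums and of depth in this pattern was not tested.

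The 5 loci with the pattern nearest to *Adck3*, by Euclidean distance of log2(FPKM + 1) over the 6 mice after centring on the wild-type mean, were *Cidea* (distance 0.443), *Clic5* (0.482), *Hlx* (0.632), *Pdk4* (0.633) and *Acaa2* (0.703). *Cidea* codes for a lipid droplet protein abundant in brown fat, *Pdk4* for a kinase that holds back pyruvate dehydrogenase and *Acaa2* for the thiolase of mitochondrial fatty acid oxidation. *Cidea* had 2123, 1498 and 1521 FPKM in transgenic and 164, 106 and 110 FPKM in wild-type iWAT. As for *Adck3*, replicate 1 was the highest mouse and replicate 2 the lowest in each genotype. *Clic5*, *Hlx*, *Pdk4* and *Acaa2* did not have this order in both genotypes. The loci were picked for nearness over these same values, so a shared order is no separate evidence.

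Among other genes of coenzyme Q metabolism the highest fold changes were those of *Hpdl* and *Coq10a*. Of 13 listed genes 12 were tested, *Fdx1l* being on a row with *Raver1*. By limma 7 were higher and 0 lower, with 1 lower at an unadjusted p under 0.05, and the median log2 fold change was 0.41. The share called higher over all tested loci was 11.6%. *Hpdl*, an enzyme of the ring precursor, had 0.568, 0.758 and 0.375 FPKM in wild-type and 5.40, 2.44 and 2.94 FPKM in transgenic iWAT, a log2 change of 1.51 (limma adjusted p = 0.00757). Its wild-type mean of 0.567 FPKM was under the limit of 1 FPKM, so *Hpdl* passed the filter through the transgenic mice alone. It is counted among the 7. With no filter it was also called (limma adjusted p = 0.0172). With a pseudocount of 0.1 in place of 1 the change of *Hpdl* was 2.43, and the ratio of its means was 6.34. *Coq10a*, a lipid-binding protein needed for the function of coenzyme Q in respiration, had 33.6, 27.7 and 30.1 FPKM in transgenic and 12.3, 12.5 and 10.1 FPKM in wild-type iWAT. It rose by 1.32 on the log2 scale (SE 0.11, limma adjusted p = 0.000829) and shares its interval with *Cs*. Its paralogue *Coq10b* had 13.7, 15.0 and 14.5 FPKM against 11.3, 10.2 and 8.86 FPKM, a log2 change of 0.48 (limma adjusted p = 0.0188).

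*Fdxr*, the reductase that hands electrons to mitochondrial ferredoxins, had a log2 change of 0.64 (limma adjusted p = 0.00414), and the ferredoxin *Fdx1* 0.31 (adjusted p = 0.241). *Pptc7*, a mitochondrial phosphatase, had 0.47 (adjusted p = 0.0439, limma) and *Stard7*, a lipid transfer protein, 0.36 (adjusted p = 0.0360, limma). The mitochondrial protease *Oma1* had -0.07 (adjusted p = 0.634, limma). The count of 7 was 5 without transgenic replicate 1 and 4 without transgenic replicate 3, wild-type replicate 2 or wild-type replicate 3. Of the calls lost, *Pptc7* reached a limma adjusted p of 0.129 without wild-type replicate 3, and *Coq10b* 0.0648 and *Stard7* 0.103 without transgenic replicate 3.

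The mevalonate pathway supplies the tail. Of 15 genes 4 were higher and 0 lower by limma, with 0 lower at an unadjusted p under 0.05, and the median log2 fold change was 0.23. Over all tested loci 11.6% were called higher and 7.03% lower. *Acat2*, a thiolase at the start of the pathway, had 82.3, 81.8 and 71.1 FPKM in transgenic and 50.7, 43.9 and 32.1 FPKM in wild-type iWAT, a log2 change of 0.90 (limma adjusted p = 0.0125). *Mvk*, mevalonate kinase, had the lowest log2 fold change of the list, -0.18 (adjusted p = 0.330, limma), with 19.5, 17.5 and 16.4 FPKM in transgenic and 21.7, 22.3 and 17.03 FPKM in wild-type iWAT, which overlap. *Pmvk*, *Fnta* and *Fntb*, with log2 fold changes of 0.63, 0.36 and 0.31, had adjusted p of 0.0423, 0.0408 and 0.0488 (limma). After quantile normalization *Pmvk* had 0.39 and was not called (limma adjusted p = 0.130), and *Fntb* was not called with eBayes without trend (0.0586). The last pair code for prenyltransferase subunits that use the same precursors for proteins. Only 1 of the 15 was called without transgenic replicate 1, wild-type replicate 2 or wild-type replicate 3, and 2 without transgenic replicate 2, transgenic replicate 3 or wild-type replicate 1.

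Enzymes that reduce or oxidise coenzyme Q include complexes of the respiratory chain and several dehydrogenases. Of 26 listed genes 24 were tested, since *Etfb* is on a row with *Cldnd2* and *mt-Nd1* is not analysed here. By limma 19 were higher and 0 lower, with 0 lower at an unadjusted p under 0.05, and the median log2 fold change was 1.13. The share called higher over all tested loci was 11.6%. All 9 complex III genes, which take electrons from coenzyme Q, were called, with a median of 1.16 and a range of 0.72 for *Uqcrh* (0.46 after quantile normalization, still called) to 1.65 for *Uqcrc1*. The others were *Uqcrfs1*, *Uqcrc2*, *Uqcrb*, *Uqcrq*, *Uqcr10*, *Uqcr11* and *Cyc1*. All 4 complex II genes, *Sdha*, *Sdhb*, *Sdhc* and *Sdhd*, were called, with a median of 1.22, as were the 2 complex I subunits tested, *Ndufs7* and *Ndufa9*.

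*Etfdh*, the enzyme that passes electrons from fatty acid oxidation to coenzyme Q, had the largest fold change of the list, with 359, 275 and 325 FPKM in transgenic and 104, 74.0 and 90.9 FPKM in wild-type iWAT. Its log2 value was 1.83 (SE 0.15, limma adjusted p = 0.000829), and that of *Etfa*, a subunit of its electron donor, 1.17 (0.00484). *Gpd2*, which feeds in electrons from glycerol 3-phosphate, had 1.78 (limma adjusted p = 0.000581). *Aifm2*, a reductase of coenzyme Q outside mitochondria, had 0.63 (adjusted p = 0.00627, limma). The genes not called were *Dhodh*, *Chdh*, *Prodh*, *Sqrdl* and *Nqo1*, with 0.36, 0.10, -0.11, -0.20 and -0.35. *Dhodh* was called higher with the replicate block (limma adjusted p = 0.0434) and without transgenic replicate 2 (0.0499), which made 20 genes called. *Sqrdl* was called lower after quantile normalization only.

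**Figure D5:**
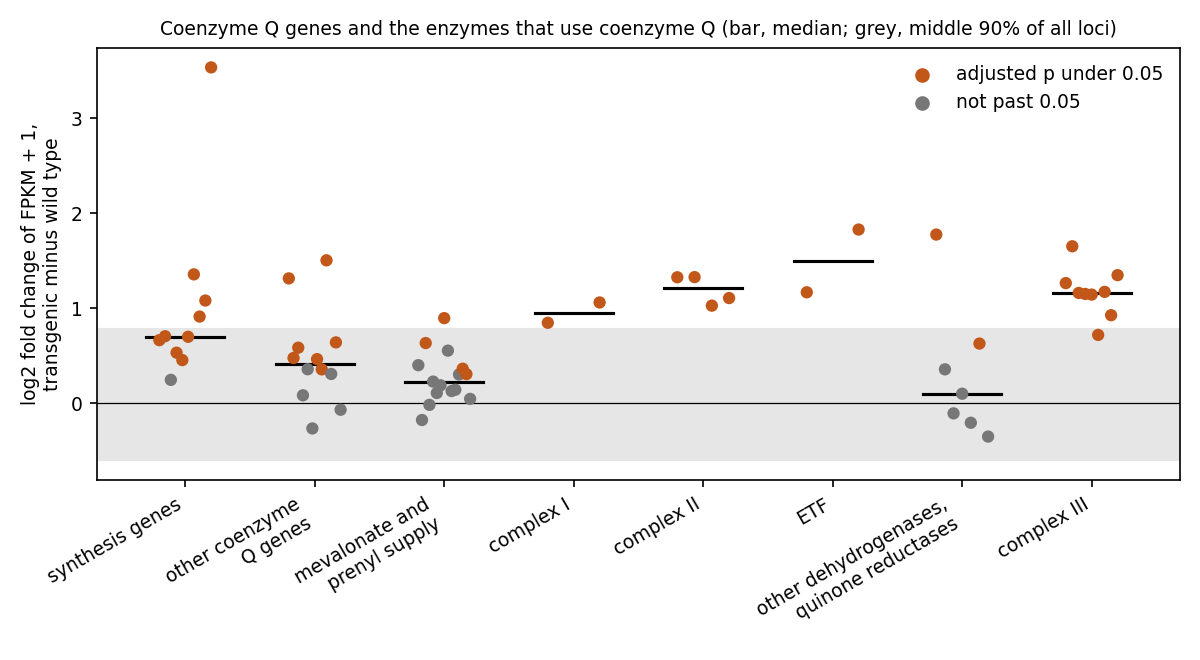
Log2 fold change of FPKM + 1, transgenic minus wild type, for each tested gene of the coenzyme Q lists, with orange for an adjusted p under 0.05 (limma), grey for genes not called, a bar for each median and a grey band for the middle 90% of all tested loci. ETF stands for electron transfer flavoprotein and its dehydrogenase. The medians are 0.70 for the synthesis genes, 0.41 for other coenzyme Q genes, 0.23 for mevalonate and prenyl supply and 1.16 for complex III.

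Summed per mouse, the synthesis genes without *Adck3* came to 7.30%, 7.33% and 7.44% of the complex III sum in transgenic and 8.63%, 7.96% and 8.93% in wild-type iWAT. Against complex II they came to 23.6%, 26.1% and 25.4% in transgenic and 32.3%, 30.7% and 32.4% in wild-type iWAT. Both shares were lower in each transgenic than in each wild-type mouse, and the direction turned when *Adck3* was included. All 10 genes came to 12.9%, 12.03% and 12.9% of the complex III sum in transgenic and 9.75%, 8.69% and 9.93% in wild-type iWAT. Against complex II the 10 genes came to 41.7%, 42.8% and 43.98% in transgenic and 36.5%, 33.5% and 36.0% in wild-type iWAT, with each transgenic mouse then above each wild-type mouse. *Adck3* was set apart after its values were seen, and these shares were not tested. How often such shares separate over all loci was not computed, so the separation has no background. Only the deposited FPKM were summed, and quantile normalization lowered the fold changes of *Sdha* and *Uqcrh*. Of 6 genes taken as a measure of mitochondrial content 4 were higher by limma, with a median log2 fold change of 0.72 and values of 1.12 for *Cs*, 0.19 for *Tfam* and 0.11 for *Tomm20*, the last 2 not called. The share called higher over all tested loci was 11.6%. Brown adipocyte and mitochondrial genes therefore moved in the same libraries as the synthesis genes, and their part in the result was not tested.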

How the data were processed

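RNA-Seq of iWAT from 3 *Hlx* transgenic and 3 wild-type mice was used, with 1 library per mouse (TruSeq RNA v2 kit, reads of 100 bases from a single end). Per the labels mm10 was the build, and the authors deposited Cufflinks FPKM values per gene and mouse, which are not counts. The submitters' processing notes name CASAVA 1.8.2, TopHat2 2.0.9, Bowtie2 2.1.0 and Cufflinks 2.2.1, and the annotation and options are not given in the sources used here. Deposited columns held samples only, and no library repeated the values of another.

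Values were compared as log2(FPKM + 1) with limma 3.58.1 in R 4.3.3 (lmFit, eBayes with trend, two-sided, no covariate, Benjamini-Hochberg adjustment over all 11692 tested loci). This scale understates changes of low genes. The spread is that between mice. Ratios within a mouse were tested with an exact two-sided permutation test. In data simulated from these means and spreads over 11692 genes, the fit recovered 98% of 100 genes changed 3-fold and 85% of 100 changed 2-fold, and 2.66% of 188 calls were false. The changes were put only into genes above a set wild-type level, which *Pdss1* and *Hpdl* do not reach. The noise was normal, and far fewer genes were changed than were called in the data. These rates therefore need not hold for low genes or for the real calls. Only relative depth could be read, 0.69 to 1.14 in transgenic and 0.943 to 1.41 in wild-type mice, so low FPKM are less precise in transgenic replicates 1 and 3.

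Members, gene lists, tests and alternatives were chosen with earlier results of these data known. Named were all 10 members, all other coenzyme Q genes, the called and the extreme genes of the remaining lists, and the 5 loci nearest in pattern to *Adck3*. A few genes of the lists are not reported here and are left out of their counts. Deposited intervals can join neighbouring genes, and starts were converted to 1-based positions. Alternatives were a pseudocount of 0.1, no filter or a filter on the overall mean, median-ratio scaling, quantile normalization, robust eBayes or eBayes with no trend, the replicate number as a block, and each mouse left out.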

Additional observations from a re-analysis of the deposited data

How the results depend on the processing

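The count of 9 synthesis genes called higher was 9 in each alternative except without transgenic replicate 3 (7), without wild-type replicate 2 (7) and without wild-type replicate 3 (6), and 0 were called lower in all of them. The calls of *Pdss1*, *Pdss2*, *Coq4*, *Coq6*, *Coq9* and *Adck3*, 6 genes, held in all alternatives run. With each mouse left out in turn, 4 to 7 other coenzyme Q genes and 1 to 2 mevalonate genes were called higher, against 7 and 4 with all mice, and over all tested loci 780 to 1295 were called higher and 329 to 906 lower. Without a filter 2 mevalonate genes were called higher. With the replicate block the mevalonate count was 2, the synthesis count 9, *Adck4* (adjusted p = 0.0449, limma) and *Dhodh* (0.0434) were called, and *Pptc7*, *Pmvk* and *Fntb* were not (0.0792, 0.0711 and 0.0635), as without a filter (0.0784, 0.0678 and 0.0724). Same-numbered mice deviated with correlations of 0.013, 0.034 and 0.07, so the numbers were not taken to pair the samples. After quantile normalization 1 enzyme that uses coenzyme Q, *Sqrdl*, was called lower. The log2 difference of the *Pdss1* to *Pdss2* ratio was -0.041 with a pseudocount of 1, and -0.010 to 0.14 with a mouse left out. Genes near no change crossed 0 when a mouse was left out, none of them called. Their log2 fold changes ran from -0.30 to 0.15 for *Mvd*, -0.016 to 0.23 for *Fdps*, -0.016 to 0.23 for *Sqle*, -0.011 to 0.089 for *Pggt1b*, -0.29 to 0.22 for *Prodh* and -0.11 to 0.22 for *Chdh*. The cause of these shifts was not tested. Scaling moved the median of all loci by under 0.1 on the log2 scale, but single genes moved more. Quantile normalization took the log2 fold change of *Coq9* from 1.08 to 0.86. It took *Sdha* from 1.33 to 0.99 and *Sdhb* from 1.33 to 0.95. *Pdss1* went from 0.67 to 0.69, and *Pdss2* was 0.71 in both. Differences between the list medians can therefore depend on the scaling, and list medians after quantile normalization are not given here.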
